A study of Mus musculus with 4 samples.

Results

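Of the 112566 MIZ-1 peaks deposited for B220+ splenocytes, 2319 lay at the promoters of pseudogenes. A peak was counted when the nearest transcript start of the GENCODE basic annotation of mm10 belonged to a gene whose type contains the word pseudogene, and when the peak covered that start, ended less than 2000 bp before it or began less than 1000 bp after it. The MIZ-1WT list held 647 such peaks of 34209 (1.89%, 95% Wilson interval 1.75 to 2.04), and the MIZ-1DPOZ list held 1672 of 78357 (2.13%, 2.03 to 2.24). They made up 7.25% of the 8928 MIZ-1WT peaks at any promoter and 9.94% of the 16822 MIZ-1DPOZ ones. Together they belonged to 1698 of the 13523 annotated pseudogenes.

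Sites occupied by MIZ-1 with and without its POZ domain had been mapped by ChIP-seq in mice on a C57BL/6 background, aged 40 to 70 days in the study's methods. MIZ-1WT mice carried the intact protein. MIZ-1DPOZ mice carried the Miz-1floxedPOZ allele together with MB1-cre, a recombinase driven by the Cd79a gene that is active in B lineage cells, so that MIZ-1 keeps its zinc fingers and loses the POZ domain. Each genotype had 1 ChIP library, made with the antibody Miz-1 H-190, and 1 input library made without antibody. Since there were no replicates, every interval given here covers counting error only, and differences between the lists compare those libraries and not genotypes. How many mice entered each library is not given in the sources used here, and peak lists cannot show whether the cells expressed B cell markers.

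The MIZ-1DPOZ ChIP library was 1.34 times deeper than the MIZ-1WT one, as recovered from the peak scores. The median pileup, the number of ChIP fragments stacked at a peak's summit, was 9 over MIZ-1WT peaks and 12 over MIZ-1DPOZ peaks, and the highest values were 296 and 346. Peaks at pseudogenes had medians of 9 and 13 fragments. Pileup ratios below were divided by the depth ratio unless the text gives the fragments themselves.

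MIZ-1, encoded by Zbtb17, is a zinc finger protein that binds DNA at gene promoters and partners with MYC through regions outside its POZ domain, the domain by which it assembles with itself. Pseudogenes are genomic copies that resemble a gene but have lost its coding potential. A processed pseudogene is an mRNA that was reverse transcribed and inserted elsewhere, so it lacks introns and usually the promoter of its parent. An unprocessed pseudogene arose by duplication of genomic DNA and can keep introns and upstream sequence.

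Sequence is shown here for a few examples that the results turn on, and these do not stand for all peaks at pseudogene promoters. All coordinates and strands are those of mm10. The first set shows 1 processed pseudogene for each of the parents Cdv3, Tlk2, Ppp2r5a and Smarca5 from a cluster on chromosome 4, 60 bp to either side of a summit and with CpG dinucleotides in capitals, since the peaks there sat on CpG-rich sequence. The + strand is printed for chr4:145837062-145837182, chr4:147124899-147125019, chr4:146580461-146580581 and chr4:146067737-146067857.
Gm13238: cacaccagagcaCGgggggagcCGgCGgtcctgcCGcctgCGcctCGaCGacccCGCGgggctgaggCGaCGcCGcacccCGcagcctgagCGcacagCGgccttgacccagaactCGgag
Gm13162: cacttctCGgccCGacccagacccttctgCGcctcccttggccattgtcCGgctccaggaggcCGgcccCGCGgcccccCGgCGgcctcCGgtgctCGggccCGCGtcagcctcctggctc
Gm13233: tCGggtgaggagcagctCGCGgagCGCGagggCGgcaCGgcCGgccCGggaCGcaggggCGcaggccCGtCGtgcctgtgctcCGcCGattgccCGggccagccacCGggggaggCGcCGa
Gm13034: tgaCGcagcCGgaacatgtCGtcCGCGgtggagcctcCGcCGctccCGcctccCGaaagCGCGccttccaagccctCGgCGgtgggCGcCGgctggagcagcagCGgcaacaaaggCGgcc

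The second set shows sequence present in many genomic copies. Gm20523 had the tallest MIZ-1DPOZ peak at an unprocessed pseudogene, and the window chr17:36707590-36707790 (+) around its MIZ-1DPOZ summit holds in capitals a stretch of 20 bases that recurred among the peaks of highest copy number. Gm11623, at chr11:104814895-104815015 (+), is a tandem repeat whose unit GGAGCC is in capitals.
Gm20523: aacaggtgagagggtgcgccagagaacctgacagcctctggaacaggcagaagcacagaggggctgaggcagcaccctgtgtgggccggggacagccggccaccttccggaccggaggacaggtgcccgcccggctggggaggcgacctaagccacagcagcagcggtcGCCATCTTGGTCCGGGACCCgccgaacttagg
Gm11623: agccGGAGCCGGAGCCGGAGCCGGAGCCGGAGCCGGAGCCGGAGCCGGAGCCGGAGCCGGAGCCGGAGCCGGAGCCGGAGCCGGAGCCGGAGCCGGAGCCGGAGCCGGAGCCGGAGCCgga

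The third set places the ribosomal protein gene Rps2 beside 3 of its processed pseudogenes, over 91 bp around each copy's MIZ-1WT summit and with CpG in capitals, as examples of copies close to the parent. Over all 134 copies of Rps2 the median identity was 89.2%. The windows are chr17:24720343-24720433 (+), chr12:59081086-59081176 (+), chrX:52898651-52898741 (+) and chr17:31644646-31644736 (-), the first being the stretch of Rps2 that matches Gm5786 best. Compared with their own best stretch of Rps2, the copies differed at 1, 1 and 2 bases.
Rps2: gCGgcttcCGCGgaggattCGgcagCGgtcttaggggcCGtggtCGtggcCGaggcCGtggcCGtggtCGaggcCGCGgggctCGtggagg
Gm5786: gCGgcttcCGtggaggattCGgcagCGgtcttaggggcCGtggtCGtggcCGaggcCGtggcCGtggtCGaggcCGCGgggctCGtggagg
Rps2-ps13: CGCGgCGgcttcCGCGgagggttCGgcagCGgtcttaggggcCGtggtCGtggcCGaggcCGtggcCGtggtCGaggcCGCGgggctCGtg
AC090881.3: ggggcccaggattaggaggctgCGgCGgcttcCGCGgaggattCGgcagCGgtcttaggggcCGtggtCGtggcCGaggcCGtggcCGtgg

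The last set shows unprocessed pseudogenes of the parents Asap2 and Slmap, 60 bp to either side of a MIZ-1DPOZ summit of each parent's copies, with CpG in capitals. They come from chr12:17992903-17993023 (+) and chr3:93870685-93870805 (+).
Gm49330: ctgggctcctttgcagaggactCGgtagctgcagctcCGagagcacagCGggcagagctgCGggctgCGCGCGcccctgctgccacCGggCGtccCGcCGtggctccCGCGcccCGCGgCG
Gm37430: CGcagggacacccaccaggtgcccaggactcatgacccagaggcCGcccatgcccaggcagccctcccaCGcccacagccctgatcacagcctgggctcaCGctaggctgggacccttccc

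Processed pseudogenes had a promoter peak more often than unprocessed ones in both lists. Of 10236 processed pseudogenes, 509 (4.97%, 4.57 to 5.41) had a MIZ-1WT peak and 1283 (12.5%, 11.9 to 13.2) had a MIZ-1DPOZ peak. Of 2896 unprocessed pseudogenes, 83 (2.87%, 2.32 to 3.54) and 206 (7.11%, 6.23 to 8.11) had one. The differences were 2.11 percentage points (Newcombe 95% interval 1.32 to 2.81) and 5.42 points (4.25 to 6.52). Over all 55450 annotated genes the share was 13.8% for MIZ-1WT and 24.5% for MIZ-1DPOZ, and over all pseudogenes it was 4.5% and 11.2%. Pseudogenes of both classes stood below protein-coding genes, at 27.5% and 44.0%. Another 17 MIZ-1WT and 37 MIZ-1DPOZ peaks lay at pseudogenes of other types, among them polymorphic, unitary and immunoglobulin V pseudogenes.

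Annotated transcription went with a higher share in either class. Of 296 processed pseudogenes marked as transcribed, 31 (10.5%, 7.48 to 14.5) had a MIZ-1WT peak, against 4.81% of the others, a difference of 5.66 points (2.64 to 9.69). In the MIZ-1DPOZ list these shares were 20.9% and 12.3%, 8.66 points apart (4.36 to 13.7). Of 253 transcribed unprocessed pseudogenes, 21 (8.30%, 5.49 to 12.4) had a MIZ-1WT peak against 2.35% of the others, and 17% against 6.17% had a MIZ-1DPOZ peak. Those differences were 5.95 points (3.07 to 10.0) and 10.8 points (6.58 to 16).

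**Figure D1:**
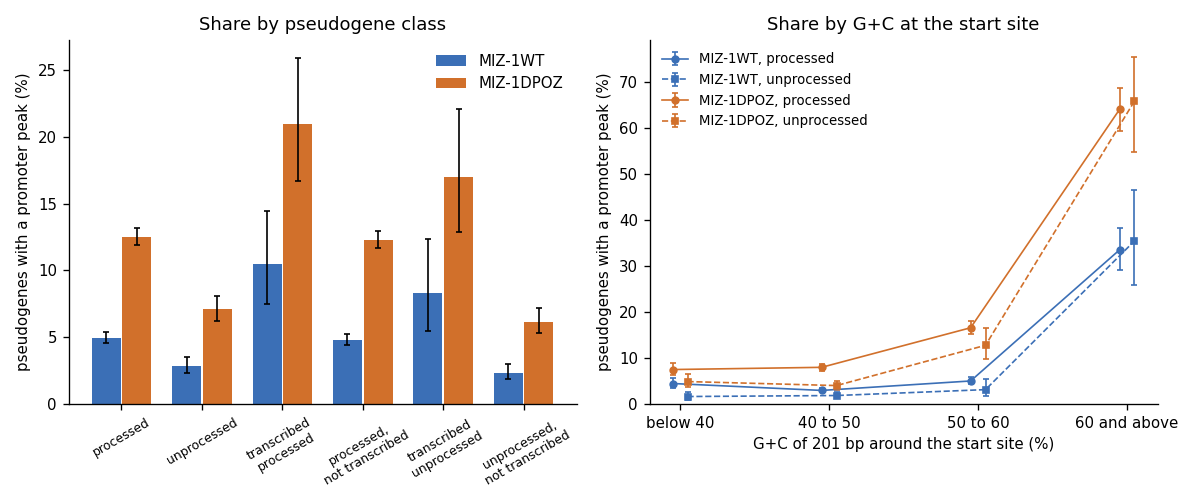
Left, share of pseudogenes with a peak at the promoter (%) for MIZ-1WT and MIZ-1DPOZ by class. Right, the same share for processed and unprocessed pseudogenes in 4 ranges of G+C (%) within 100 bp of the start site. Bars and points are shares and whiskers are 95% Wilson intervals. Processed pseudogenes stand above unprocessed ones as a class, at 4.97% against 2.87% in the MIZ-1WT list, but not at a G+C of 60% and above, at 33.5% against 35.4%.

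Base composition at the start site differed between pseudogenes with and without a peak. Processed pseudogenes with a MIZ-1WT peak had a median G+C of 51.7% within 100 bp of the start and 6 CpG dinucleotides, against 46.8% and 3 for those without. Where G+C was 60% or more, 135 of 403 processed pseudogenes (33.5%, 29.1 to 38.2) and 28 of 79 unprocessed ones (35.4%, 25.8 to 46.4) had a MIZ-1WT peak. The same range of G+C gave 64% (59.2 to 68.6) and 65.8% (54.8 to 75.3) in the MIZ-1DPOZ list. The difference between the classes there was -1.94 points (-13.8 to 8.81) and -1.80 points (-12.5 to 10.1), so its sign could not be told at this number of genes. At a G+C of 50 to 60% the intervals also included 0. Below 50% processed pseudogenes had the higher share in both lists, for example 2.95% against 1.84% in the MIZ-1WT list and 7.97% against 4.01% in the MIZ-1DPOZ list at 40 to 50%. The classes differed in composition, and unprocessed pseudogenes without a MIZ-1WT peak had a median G+C of 45.3% and 1 CpG.

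Copies close to their parent gene carried peaks more often among processed pseudogenes. A parent, the protein-coding gene whose transcript matched best at 70% identity or more over at least 50% of the pseudogene, was found for 9009 of 10236 processed and 2452 of 2896 unprocessed pseudogenes. Processed pseudogenes with a MIZ-1WT peak had a median identity of 94.6% (94.1 to 95.4) to their parent, against 89.8% (89.5 to 90.0) without one. The MIZ-1DPOZ list gave 94.3% and 89.4%. Unprocessed pseudogenes with a peak did not have a higher identity beyond these intervals, at 94.0% (91.1 to 96.2) against 93.7% in the MIZ-1WT list and 91.9% (90.6 to 94.0) against 93.8% in the MIZ-1DPOZ list. How the authors treated reads that map to several places is not stated in the sources used here, and close copies share such reads with their parents.

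Parents of pseudogenes with a peak had a promoter peak themselves more often than parents of pseudogenes without one. Among processed pseudogenes the shares were 43.4% (38.9 to 47.9) against 35.9% (34.9 to 36.9) in the MIZ-1WT list and 57.6% (54.8 to 60.4) against 48.2% (47.1 to 49.4) in the MIZ-1DPOZ list. Among unprocessed pseudogenes they were 25% (16 of 64, 16 to 36.8) against 6.37% and 42.3% (69 of 163) against 12.1%. Several pseudogenes can share 1 parent, so these counts are not independent.

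Of the 608 pseudogenes with a MIZ-1WT peak, 431 (70.9%) also had a MIZ-1DPOZ peak, 177 did not, and another 1090 had a MIZ-1DPOZ peak alone, so that the shared genes were 28.3% of the 1521 found there. In the same order, 369, 140 and 914 were processed and 53, 30 and 153 unprocessed. Among protein-coding genes, shared ones were 84.3% of those found in the MIZ-1WT list and 52.7% of those found in the MIZ-1DPOZ list. Over all annotated genes these shares were 80.5% and 45.3%. Several peaks at 1 pseudogene were found for 36 genes in the MIZ-1WT list, with 3 at most, and for 140 in the MIZ-1DPOZ list, with 4 at most. Chromosome Y, with 810 pseudogenes, had 0 MIZ-1WT peaks and 1 MIZ-1DPOZ peak at them. Its peaks away from pseudogenes are not given here, and the sample titles and the study's methods do not state the sex of the mice. The count is therefore not shown to be a trait of these pseudogenes.

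Peaks at pseudogenes were less tied to the start itself than peaks at coding promoters. The peak covered the start at 22.9% of MIZ-1WT and 25.8% of MIZ-1DPOZ members, against 36.5% and 38.9% at coding promoters. It lay before the start at 318 and 696 members, and after it at 181 and 544. The median summit position was -105 bp for processed and -114 bp for unprocessed pseudogenes in the MIZ-1WT list, against 97 bp at protein-coding promoters. In the MIZ-1DPOZ list it was -26 bp and -163.5 bp, against 130 bp. The summit lay inside the pseudogene in 27.4% (23.8 to 31.3) of processed and 34.4% (25.5 to 44.5) of unprocessed MIZ-1WT peaks, while 78.9% of coding promoter peaks had it inside their gene. That share also depends on gene length. Processed pseudogenes with a MIZ-1WT peak had a median length of 648 bp, less than the 1000 bp allowed after the start. A protein-coding start lay within 2000 bp of 2.16% of the MIZ-1WT and 2.39% of the MIZ-1DPOZ peaks. In the last 100 bp inside the upstream limit 9 MIZ-1WT and 25 MIZ-1DPOZ peaks ended, and in the next 100 bp 11 and 25. In the last 100 bp inside the downstream limit 12 and 37 peaks began, and in the next 100 bp 9 and 27.

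**Figure D2:**
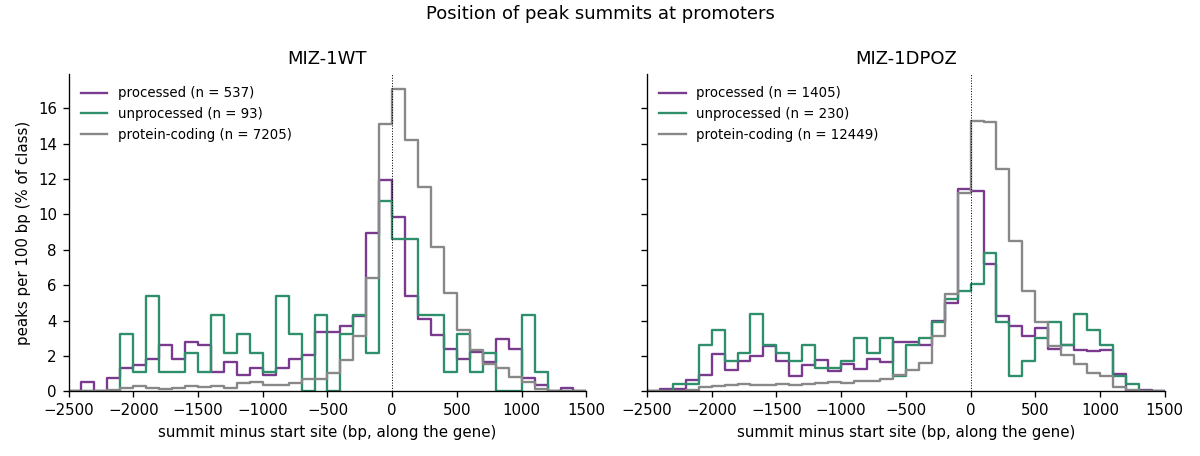
Position of the peak summit relative to the start site (bp, negative values before the start) for peaks at processed pseudogenes, unprocessed pseudogenes and protein-coding genes in each list, as the share of the class (%) in bins of 100 bp. Coding promoter peaks gather just after the start, with medians of 97 and 130 bp. Processed pseudogene peaks are also most frequent near the start, with 11.9% and 11.5% of summits in the 100 bp before it. Pseudogene peaks spread more over the rest of the allowed range, with processed medians of -105 and -26 bp.

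Sequence at the summits of pseudogene peaks was often repeated in the genome. A summit was called multi-copy when 5 sequences of 50 bases around it had a median of more than 1 genomic copy. This held for 49.7% (45.5 to 53.9) of processed and 66.7% (56.6 to 75.4) of unprocessed MIZ-1WT peaks, and for 44.8% of processed and 138 of 230 unprocessed MIZ-1DPOZ peaks. Coding promoters gave 3.58% and 5.33%, and all peaks 46.9% and 41.9%. Annotated repeats, read from the soft-masked genome, filled over 50% of the window reaching 100 bp to either side of the summit at 43.9% of processed and 45.2% of unprocessed MIZ-1WT peaks. The corresponding MIZ-1DPOZ shares were 35.7% and 41.7%, against 3.90% and 4.59% at coding promoters and 60.3% and 56.0% over all peaks. Processed MIZ-1WT peaks outside repeats had a median G+C of 67.2% and 17 CpG, and those in repeats 51.7% and 2 CpG.

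CACGTG and GGGCGG were less frequent at processed MIZ-1WT members than at MIZ-1WT promoter peaks as a whole, and CCAAT was more frequent. CACGTG, the E-box bound by MYC, was found on either strand within 100 bp of the summit at 1.86% (1.01 to 3.39) of processed MIZ-1WT peaks, against 4.28% of all promoter peaks and 3.25% of all peaks. In the MIZ-1DPOZ list these shares were 2.99% (2.22 to 4.02), 3.71% and 3.45%. GGGCGG, the letters of a GC box, occurred in 30.5% (26.8 to 34.6) of processed and 37.6% (28.5 to 47.8) of unprocessed MIZ-1WT peaks, against 59.9% of all promoter peaks and 26.8% of all peaks. CCAAT occurred in 19.9% (16.8 to 23.5) and 21.5% (14.4 to 30.9), more often than in all promoter peaks (11%) and less often than in all peaks (25.6%). CCGGAAG, the letters of an ETS site, occurred in 3.91% (2.57 to 5.90) of processed and 4.30% of unprocessed MIZ-1WT peaks, with an interval that included the 5.34% of all promoter peaks. A match describes letters in the window and not a site in use.

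Overlap with the other list, by at least 1 bp, was found for 440 of 647 MIZ-1WT members (68.0%, 64.3 to 71.5) and 430 of 1672 MIZ-1DPOZ members (25.7%, 23.7 to 27.9). Over all peaks the shares were 53.7% and 22.1%, and at coding promoters 73.4% and 41.4%. Processed and unprocessed MIZ-1WT members overlapped in 69.3% (65.2 to 73.0) and 60.2% (50.1 to 69.6) of cases, with intervals that overlap. Outside repeats 79.1% of processed MIZ-1WT peaks overlapped, and inside repeats 56.8%.

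Pileups at the 440 overlapping pairs were compared after scaling by depth. Each MIZ-1WT peak was paired with the tallest MIZ-1DPOZ peak that overlapped it, a choice that can raise the ratio. A wide MIZ-1DPOZ peak could enter several pairs, as at Gm17204, where MIZ-1WT peaks of 13, 14 and 19 fragments all met 65. The pairs are therefore not independent. On the log2 scale the pairs had a median MIZ-1DPOZ over MIZ-1WT ratio of 0.38 (0.31 to 0.47), and 23% were at least 2-fold higher in MIZ-1DPOZ, 3 pairs (0.682%) at least 2-fold lower and 128 (29.1%) lower by any amount. Over all overlapping peaks 28.8% were at least 2-fold higher, 1.23% at least 2-fold lower and 28.9% lower. Processed pairs had a median of 0.37 (372 pairs, 0.29 to 0.42) and unprocessed ones of 0.54 (56 pairs, 0.38 to 0.80). When the most frequent background of each library was used for scaling in place of depth, the median of the 440 pairs was 0.16, and the same median over all 18381 overlapping peaks shifted from 0.38 to 0.16.

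Copy number divided these pairs. At 211 single-copy summits the median was 0.11 (0.04 to 0.23), and it turned to -0.12 when scaled by background. At 229 multi-copy summits it was 0.69 (0.51 to 0.84), and at 85 summits with over 100 copies it was 1.38 (1.20 to 1.48), with 60 pairs (70.6%) at least 2-fold higher. Over all overlapping peaks with over 100 copies the median was 1.33 and 69.2% were at least 2-fold higher. Protein-coding promoters showed the same order, at 0.11 for 5099 single-copy and 0.48 (0.35 to 0.54) for 193 multi-copy pairs.

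**Figure D3:**
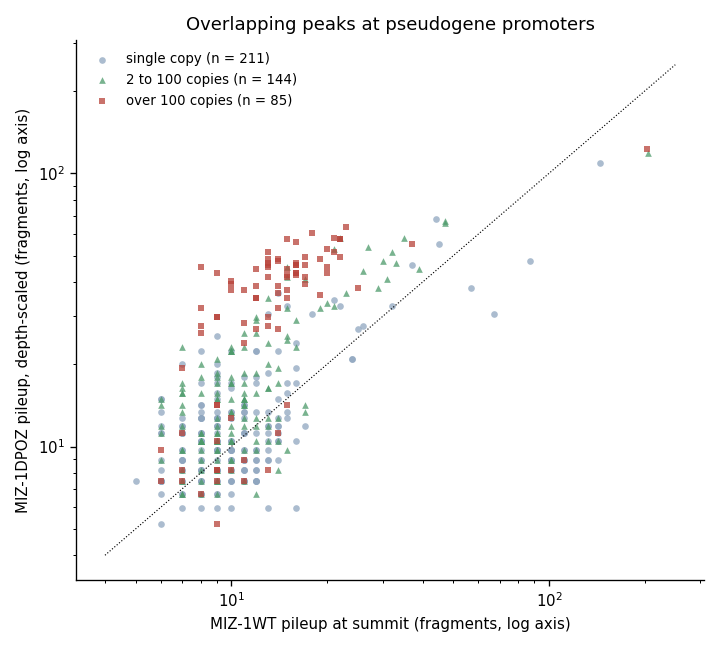
MIZ-1WT pileup (fragments, log axis) against depth-scaled MIZ-1DPOZ pileup (fragments, log axis) at 440 overlapping peak pairs at pseudogene promoters. Each point is 1 pair, coloured by the genomic copies of its summit, and the dotted line marks equal values. Pairs with over 100 copies lie mostly above the line (median log2 ratio 1.38), and single-copy pairs scatter about it (0.11).

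The 6 MIZ-1WT members of largest -log10 q were all processed pseudogenes and all had lower depth-scaled pileups in MIZ-1DPOZ. At Gm13532, a copy of the ubiquitin and ribosomal protein fusion gene Rps27a, 205 MIZ-1WT and 159 MIZ-1DPOZ fragments were stacked, at folds of 31.4 and 26.4 over background. The depth-scaled ratio was 0.579 (0.467 to 0.715), and the near edge of the peak lay at -174 bp, upstream of the annotated pseudogene. Ftl1-ps2, whose best match is the ferritin light chain gene Ftl1-ps1, followed with 204 and 165 fragments (ratio 0.603, 0.488 to 0.744), with its near edge at -1731 bp.

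Gm19193, a copy of the rRNA processing gene Fcf1, had its summit inside the pseudogene, at 350 bp. It held 87 and 64 fragments (ratio 0.549, 0.391 to 0.766). Rpl31-ps23, a copy of the large subunit protein gene Rpl31, had 67 and 41 (0.456, 0.302 to 0.683), and Gm13345 had 57 and 51 with a log2 ratio of -0.58. These 5 took ranks 1, 2, 4, 5 and 6 by -log10 q among MIZ-1WT members. In the MIZ-1DPOZ list Gm13532, Ftl1-ps2, Gm19193, Gm13345 and Rpl31-ps23 took ranks 1, 2, 4, 10 and 44. Rank 3 in both lists belonged to Gm13717, where a single-copy but 98% masked summit was enriched 13.8-fold and 13.9-fold over background (pileup ratio 0.751, 0.593 to 0.952).

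Peaks on highly repeated sequence were mostly higher in MIZ-1DPOZ, under both scalings. Of the 85 pairs with over 100 copies 12 were lower after depth scaling. Among them was Ftl1-ps2, with 536 copies at its fully masked MIZ-1WT summit. The 20 bases in capitals at Gm20523 were held by 13 MIZ-1WT members with pileups of 13 to 23 fragments (median 17). In MIZ-1DPOZ 12 members held them, with pileups of 40 to 85 (median 74), and these values are not scaled by depth. Over all overlapping peaks with over 100 copies the median depth-scaled log2 ratio was 1.33, against 1.38 at pseudogenes. A rise on such sequence was thus not particular to pseudogenes. The 20 bases occurred at 2.74% of all MIZ-1WT and 1.03% of all MIZ-1DPOZ peaks, and each of the 25 members overlapped a peak of the other list. Gm20523, for which no parent was found, had 23 fragments in MIZ-1WT and 85 in MIZ-1DPOZ (ratio 2.76, 1.72 to 4.58). Among overlapping pairs with a mean pileup of at least 20, the largest ratios were at Gm19045, with 8 and 61 fragments (5.69, 2.71 to 13.8), Gm9367, with 9 and 58 (4.81, 2.37 to 11.04), and Gm9794, with 10 and 54 (4.03, 2.03 to 8.87). Their parents were the translation elongation factor gene Eef1a1 and the ribosomal protein genes Rps7 and Rpl23, but all 3 summits were fully masked, lay over 1000 bp from the start and had 383 to 1996 copies.

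The unprocessed pseudogenes of largest -log10 q mostly had repeated summits too. Olfr363-ps, a pseudogene of an odorant receptor, had 16 and 75 fragments at a MIZ-1WT summit with 372 copies, and Gm17204 had 19 and 65 at one with 1416. Gm48431, at a fully masked summit with 120 copies, had 19 and 48, and its best match was to Vmn2r53, a vomeronasal receptor gene whose assignment as a parent is uncertain. Gm16038, a duplicate of Sp110, a nuclear body protein gene, had 4 copies at its MIZ-1WT summit, 27 and 72 fragments and a ratio of 1.99 (1.26 to 3.22). At Gm11623 the tandem repeat printed above held 37 and 74 fragments, with a ratio of 1.49 whose interval of 0.992 to 2.28 included 1.

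Olfr1372-ps1 and 5830417I10Rik had unmasked summits with 1 or 2 copies. Olfr1372-ps1, marked as transcribed, had a peak over its start at an unmasked summit, with 16 MIZ-1WT and 14 MIZ-1DPOZ fragments and a G+C of 70.6% in the MIZ-1WT window. 5830417I10Rik, 98.9% identical to its parent Gon4l, had 14 and 11 fragments, and the start of Syt11, a synaptotagmin gene, lay 57 bp from its MIZ-1WT peak. The ratios of 0.653 (0.295 to 1.43) and 0.586 (0.241 to 1.39) had intervals that included 1.

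Members found in 1 list only are described by their strongest examples. The 3 strongest MIZ-1WT ones, Gm17936, Gm44050 and Gm9959, had 14 fragments each. Gm17936 is a copy of the calponin gene Cnn3 and Gm44050 of Hmgb2, and neither overlapped a MIZ-1DPOZ peak. The summit at Gm44050 was fully masked and had 16 genomic copies. At Gm9959 a MIZ-1DPOZ peak of 16 fragments overlapped but was assigned to the kinase gene Map4k3. The 3 strongest MIZ-1DPOZ ones, Gm48691 (83 fragments), Kif4-ps (80) and Olfr928-ps1 (58), each overlapped a MIZ-1WT peak of 23, 19 or 8 fragments that was assigned to the same pseudogene but fell outside the promoter limits, so it is the rule that counts them in MIZ-1DPOZ only.

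A cluster of processed pseudogenes on chromosome 4, which holds the windows printed above, carried peaks at most copies of 4 genes. Tlk2 encodes a chromatin kinase, Ppp2r5a a regulatory subunit of protein phosphatase 2A, Smarca5 a chromatin remodelling ATPase, and Cdv3 a protein whose function is little known. Of 24 copies there, 21 had a MIZ-1WT peak, 22 a MIZ-1DPOZ peak and 20 both, at a median identity of 95.5% to the parent. Of the 4 copies of these parents elsewhere in the genome, 1 had a MIZ-1WT and 2 had a MIZ-1DPOZ peak. All 5 copies of Tlk2, all 6 of Smarca5 and all 4 of Ppp2r5a in the cluster had a peak in both lists, while Cdv3 had 6 and 7 of 9. Over all 51 processed pseudogenes of the interval 22 and 28 had a peak, and of its 10 unprocessed ones 0 and 1.

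Single-copy or nearly single-copy, CpG-rich sequence carried these peaks. The 27 MIZ-1WT peaks had pileups of 9 to 47 fragments (median 16), and the 23 MIZ-1DPOZ peaks 13 to 90 (median 43). Summit windows had 1 to 3 genomic copies, none was repeat-masked, and the median G+C was 73.1% with 22 CpG in MIZ-1WT. Median summits lay at -153 bp and -95 bp, and 20 of the 27 MIZ-1WT windows still matched the parent's mRNA. The median log2 ratio of 26 overlapping pairs was 0.52 (0.29 to 0.71), with 5 pairs at least 2-fold higher and 3 lower, and it was 0.29 when scaled by background. Only 21 of the MIZ-1DPOZ peaks overlapped a MIZ-1WT peak, and some of them entered more than 1 pair.

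By the tallest peak at each copy, Cdv3 copies held both the highest and the lowest MIZ-1WT value of the cluster. Gm13238 had 47 MIZ-1WT and 90 MIZ-1DPOZ fragments and Gm13241 had 47 and 88, while Gm13234 had 10 in MIZ-1WT only and Gm13036 and Gm13148 had 17 and 19 in MIZ-1DPOZ only. Among Tlk2 copies Gm13162 was highest with 45 and 74, and among Ppp2r5a copies Gm13233 had 39 and 60 and Gm13169 had 30 and 64. Smarca5 copies were lower in MIZ-1WT, from 12 at Gm13231 to 23 at Gm13136, and reached 49 in MIZ-1DPOZ. The parents had peaks of their own. Tlk2 had 13 fragments at most in MIZ-1WT and 16 in MIZ-1DPOZ, Cdv3 9 and 19, Ppp2r5a 10 and 17, and Smarca5 no MIZ-1WT promoter peak and 16 in MIZ-1DPOZ.

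**Figure D4:**
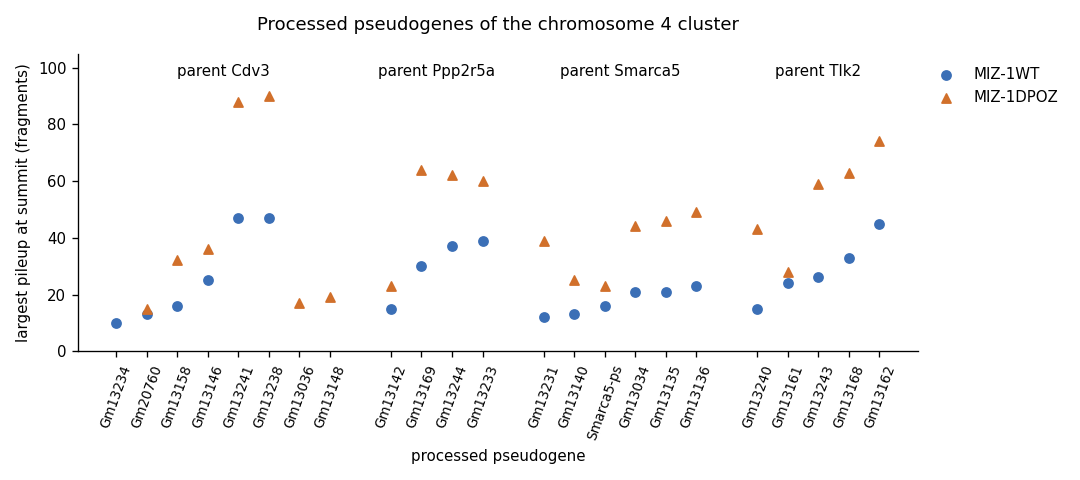
Largest summit pileup (fragments, not scaled by depth) at each processed pseudogene of the chromosome 4 cluster, grouped by parent gene and ordered by the MIZ-1WT value. Circles are MIZ-1WT and triangles MIZ-1DPOZ, and a missing symbol means no promoter peak in that list. MIZ-1DPOZ values reach 90 at Gm13238 and MIZ-1WT values reach 47.

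Further clusters held unprocessed pseudogenes alone or both classes. On chromosome 12, between 17 and 25 Mb, 30 copies of Asap2, an ARF GTPase-activating protein gene, and of Gm21863 and 9030624G23Rik comprised 22 processed and 8 unprocessed pseudogenes. Of these, 15 had a MIZ-1WT peak, all 15 also had a MIZ-1DPOZ peak, and 25 had a MIZ-1DPOZ peak in all. Pileup medians were 8.5 and 15, and the median G+C was 73.4% and 72.1%. Gm49330, shown above, had 21 fragments in MIZ-1DPOZ and no MIZ-1WT peak.

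On chromosome 7, 21 copies of the zinc finger gene Zfp772 between 7 and 10 Mb, 17 of them unprocessed, had a MIZ-1WT peak at 1 gene and a MIZ-1DPOZ peak at 13. Their MIZ-1DPOZ pileups were 9 to 23 fragments, 9 of the 13 summits lay inside the pseudogene, the median summit had 1 CpG, and none of the windows matched the parent's mRNA. On chromosome 3, 12 unprocessed copies of Slmap, a membrane-associated protein gene, had peaks at 0 and 7 genes, with MIZ-1DPOZ pileups of 11 to 18. On chromosome X, 12 processed copies of the spindlin gene Spin2d had peaks at 4 and 10, with MIZ-1WT pileups of 6 to 9 and MIZ-1DPOZ pileups of 11 to 25. These copies were taken from 3 to 75 Mb, so they are not shown to form a local cluster. Copies within a cluster resemble one another, so they are not independent observations.

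Grouped by parent family, the cytosolic ribosomal proteins held the most pseudogenes and the most peaks of the named families. Of 2253 copies of ribosomal protein genes, 78 (3.46%, 2.78 to 4.30) had a MIZ-1WT peak and 223 (9.90%, 8.73 to 11.2) a MIZ-1DPOZ peak, against 4.5% and 11.2% over all pseudogenes. Glycolytic enzymes gave 3 of 323 (0.929%, 0.316 to 2.69) and 36 (11.1%, 8.16 to 15.04). High mobility group proteins, small chromatin proteins, gave 11 (4.09%) and 27 (10.0%) of 269, close to the share of all pseudogenes. Zinc finger proteins had 5 (3.42%, 1.47 to 7.77) and 29 (19.9%, 14.2 to 27.1) of 146, and the Zfp772 copies on chromosome 7 made up 13 of these 29.

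Histones had peaks at 4 and 16 of 100 pseudogenes and ubiquitin conjugation genes at 7 and 22 of 147. Oxidative phosphorylation genes had them at 4 and 26 of 227, translation factors at 7 and 14 of 193, olfactory receptors at 5 and 16 of 243, and hnRNPs at 1 and 5 of 115. For 1979 pseudogenes without a parent the counts were 78 and 166. Families were read from the parent's symbol, so the 144 pseudogenes best matched by the predicted gene Gm10358 entered none of them.

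Vomeronasal receptors, the chemoreceptors of the vomeronasal organ, had 27 (7.67%, 5.32 to 10.9) and 42 (11.9%, 8.95 to 15.7) of 352 pseudogenes with a peak. When the match had to lie for at least 20% in the coding sequence of the parent, 246 pseudogenes were left in the family with 3 (1.22%) and 9 (3.66%). Gm48836, with 15 and 77 fragments, and Gm47893, with 17 and 53, are processed pseudogenes that had been assigned to Vmn2r53 through sequence outside its coding region. Both summits were fully masked and had over 500 copies.

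**Figure D5:**
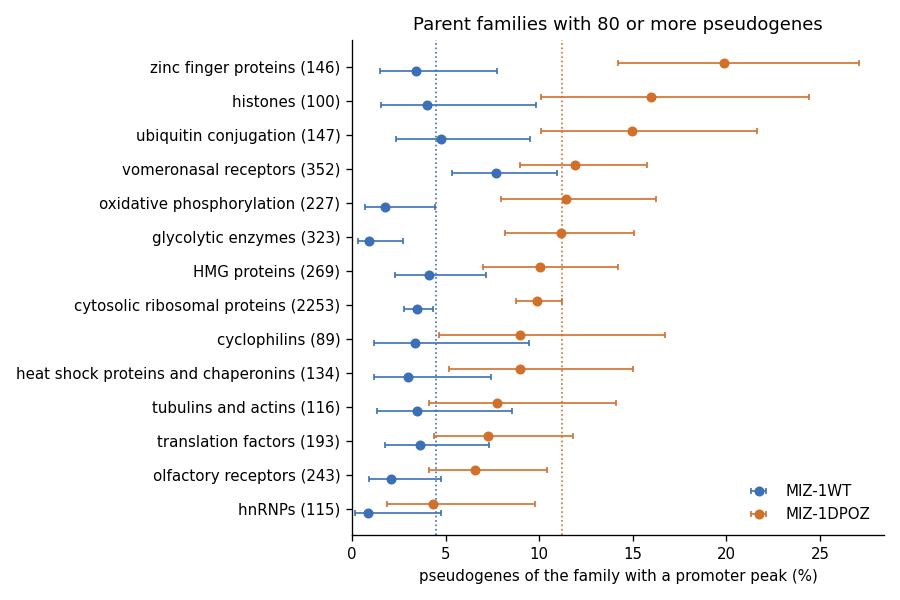
Share of the pseudogenes of each parent family with a peak at the promoter (%) for MIZ-1WT and MIZ-1DPOZ, for families with 80 or more pseudogenes (number in parentheses). Points are shares, whiskers 95% Wilson intervals, and dotted lines the share over all pseudogenes, 4.5% and 11.2%. Glycolytic enzymes lie below the line in MIZ-1WT (0.929%) and on it in MIZ-1DPOZ (11.1%), and zinc finger proteins lie above it in MIZ-1DPOZ (19.9%).

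Rps2, a protein of the small ribosomal subunit, showed where within a retrocopy the peaks lay. Of its 134 pseudogenes, 12 had a MIZ-1WT peak, 32 a MIZ-1DPOZ peak and 10 both. The summit was inside the copy at 11 of 12 MIZ-1WT peaks, 44 to 133 bp after the start (median 108), and at 26 of 35 MIZ-1DPOZ peaks, 9 to 311 bp after it (median 115). The windows were CpG-rich, with a median of 21 CpG and a G+C of 69.7% in MIZ-1WT, and 11 of them matched the coding part of the Rps2 mRNA at positions 257 to 317. Rps2 itself had no MIZ-1WT promoter peak, and a MIZ-1DPOZ peak of 13 fragments at chr17:24720266-24720541.

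Each of the 22 MIZ-1DPOZ windows of Rps2 copies that matched the parent matched it where the parent had its own peak. Gm5786 had 12 MIZ-1WT and 13 MIZ-1DPOZ fragments, Rps2-ps13 had 9 and 14, and AC090881.3 had 9 and 21. Gm6311, the tallest MIZ-1WT copy with a summit inside, had 13 and 16. The summit sequence of Gm6311 was single-copy, as was the median over the Rps2 copies in either list, while those of Gm5786, Rps2-ps13 and AC090881.3 had 3 to 8 genomic copies.

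Other parents varied in this. Copies of Rpl13, a large subunit protein gene, had MIZ-1DPOZ summits inside the pseudogene at 9 of 10 peaks, 125 to 245 bp after the start, and 8 of 9 matching windows lay at a peak of the parent. Ybx1, which encodes a cold shock domain protein, had peaks at 4 and 6 of 9 copies, and all 4 MIZ-1WT windows matched the site of a peak in Ybx1. The large subunit protein genes Rpl29 and Rpl7a had 12 and 10 matching MIZ-1DPOZ windows, with summits at 90 to 452 bp and 3 to 144 bp inside the copies, and none of these windows lay at a peak of the parent.

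Gapdh, a glycolytic dehydrogenase gene, differed in where its copies had peaks. Of 226 copies, 2 had a MIZ-1WT peak and 33 a MIZ-1DPOZ peak. Inside the copies 28 of 44 MIZ-1DPOZ peaks were found, anywhere from 45 to 1051 bp after the start, at summits with a median of 42 genomic copies and a median G+C of 55.5%. None of the 32 windows that matched Gapdh mRNA lay at a peak of Gapdh. Gm10284, 99.3% identical to Gapdh, had 16 fragments in MIZ-1DPOZ, and Gm26933 had 35 at a masked summit with 1293 copies, with its near edge at -1591 bp. Neither had a MIZ-1WT peak.

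Gm10182 and Gm13228 had the largest -log10 q over both lists among copies of high mobility group genes. Gm10182, identical to Hmgn2 over the match, had a peak across its start with 10 MIZ-1WT and 18 MIZ-1DPOZ fragments, and the interval of the ratio of 1.34 (0.588 to 3.26) included 1. Gm13228, a copy of Hmgb1, had 21 in MIZ-1DPOZ only, at a 96% masked summit with 19 genomic copies that lay at -1398 bp. Of all 154 copies of Hmgb1, 3 and 11 had a peak.

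Over all parents, 210 of 483 summit windows at processed MIZ-1WT peaks (43.5%, 39.1 to 47.9) matched the parent's mRNA over at least 100 bases, and 660 of 1291 in MIZ-1DPOZ (51.1%, 48.4 to 53.8). With the summit inside the pseudogene the shares were 82.0% and 88.2%, and with the summit outside 30.5% and 31.4%. Of the matching windows, 57 (27.1%, 21.6 to 33.5) corresponded to a peak at the same place in the parent in MIZ-1WT and 316 (47.9%, 44.1 to 51.7) in MIZ-1DPOZ. The match lay in the coding sequence of the parent for 51.9% and 63.0% of them, and before it for 41.4% and 28.0%. Unprocessed pseudogenes matched less often, at 17 of 73 windows in MIZ-1WT and 50 of 182 in MIZ-1DPOZ.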

How the data were processed

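ChIP and input libraries of MIZ-1WT and MIZ-1DPOZ B220+ splenocytes were compared through their deposited narrowPeak lists, 1 per genotype. Per the study's methods the authors trimmed reads with Trimmomatic and aligned them with bwa, whereas the submitters' processing notes name Bowtie2 2.2.6 and MACS2 2.1.0 on mm10, and neither states how multi-mapping reads were treated. The deposited scores, fold enrichments over background (ratio), and −log10 p and −log10 q values were made by the authors with MACS2 against the input. Reads and inputs were not analysed here.

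Pileups were solved from the deposited fold and p under the MACS2 formulas, for 99.97% and 99.99% of peaks, which was tested on simulated data, and the depth ratio was 1.34 (background ratio 1.57). Ties between starts went to the one closest to the summit. Parents were the best BLASTN 2.17.0 hits to protein-coding transcripts. Copies are the median genome count of 5 sequences of 50 bases around the summit. Shares have Wilson intervals, medians order-statistic intervals, and pileup ratios exact binomial ones, all at 95%. Python 3.11.15 with pandas 2.3.3, numpy 2.4.6, scipy 1.17.1 and numba 0.67.0 was used.

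Named pseudogenes were, in each list, the 5 processed and 5 unprocessed with the largest −log10 q, the 3 largest in 1 list only, the 3 highest and 3 lowest ratios among pairs with a mean pileup of at least 20, and the 2 strongest of each of the 4 families with the most peaks. Members, lists and families were chosen with earlier results of these data known. The clusters, the single parents, the repeats shown and the remaining named copies were chosen after their values were seen. Some sequences and results that rest on them are not reported here.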

Additional observations from a re-analysis of the deposited data

How the results depend on the processing

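No paired analysis was possible because a single ChIP library stood for either genotype. Processed minus unprocessed stayed above 0 with an interval excluding 0 in every alternative run, at 1.22 to 2.15 points in MIZ-1WT and 3.01 to 5.81 points in MIZ-1DPOZ. Over all alternatives 68 values were labelled unchanged and 62 moved. Shares, differences and medians were unchanged when they stayed inside the interval reported for them. Counts have no interval and were judged by a fold limit. By it, 744 pseudogenes in MIZ-1DPOZ only at a fold of at least 5, against 1090 as reported, was unchanged. The cause of a move was not tested where the construction of the alternative (fewer peaks, a narrower promoter, a stricter overlap) does not give it.

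In the order MIZ-1WT then MIZ-1DPOZ, a −log10 q of at least 5 left 238 and 1052 peaks, processed shares of 2.01% and 8.44%, unprocessed shares of 0.794% and 4.49%, differences of 1.22 and 3.95 points, 182 pseudogenes in both lists and 54 in MIZ-1WT only, overlaps of 76.1% and 17.7%, and 37.0% masked MIZ-1WT summits. A fold of at least 5 left 355 and 1003 peaks, processed shares of 2.91% and 8.17%, unprocessed shares of 1.35% and 4.07%, a MIZ-1DPOZ difference of 4.09 points, 228 pseudogenes in both, overlaps of 63.7% and 23.1%, and 46.8% multi-copy MIZ-1WT summits. With equal numbers of peaks the MIZ-1DPOZ list held 834 members, shares of 6.70% and 3.69%, a difference of 3.01 points, 295 pseudogenes in MIZ-1WT only and 496 in MIZ-1DPOZ only, and overlaps of 49.9% and 37.5%.

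Within 500 bp of the start, 397 and 1022 peaks were left, with processed shares of 3.14% and 8.23%, unprocessed shares of 1.69% and 3.42%, and 266 pseudogenes in both, 113 in MIZ-1WT only and 697 in MIZ-1DPOZ only. Single-copy summits left 311 and 889 peaks, processed shares of 2.53% and 7.20%, unprocessed shares of 1.04% and 3.004%, a MIZ-1DPOZ difference of 4.196 points, 183 pseudogenes in both, 116 in MIZ-1WT only and 662 in MIZ-1DPOZ only, a MIZ-1DPOZ overlap of 21.3% and a median log2 ratio of 0.11. Measured from the summit, the MIZ-1DPOZ processed share was 11.9%. A reciprocal overlap of 50% gave 43.3% and 17%, and summits within 100 bp gave 47.6% and 18.8%. Scaling by background gave a median log2 ratio of 0.16. A parent match of 85% identity over 80% gave 11.6% for ribosomal proteins in MIZ-1DPOZ. A match in the coding sequence, an alternative chosen after seeing the data, gave 1.22% and 3.66% for vomeronasal receptors. Leaving out the local clusters and the Spin2d copies, also added then, kept each value it covered inside the interval reported for it.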
